A study of Homo sapiens with 18 samples.

Results

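HAP1 cells without SCC4 were compared with control HAP1 cells. HAP1 is a near-haploid, adherent human cell line, and SCC4 (official symbol MAU2) is a subunit of the cohesin loader. The 3 samples whose label names an SCC4 knockout and the 3 control samples of set A were taken from the 18 samples of the series, which form 6 groups, and all 20329 counted genes were considered. Of these, 4100 had no count in any of the 6 samples and 12503 had enough counts to be tested. The control cells are given as wild-type. ΔSCC4 cells were made with CRISPR, by inserting a puromycin resistance cassette into SCC4, and the labels give them no clone number. A second loss of SCC4 was used for comparison: ΔWAPL cells of clone 3.3, which carry a blasticidin resistance cassette in WAPL, and ΔWAPL/ΔSCC4 cells, in which SCC4 was knocked out in ΔWAPL cells, with 3 samples each. All these groups share the HAP1 background, in which p53 function is impaired, and none received a drug treatment in the labels. The samples hold no second ΔSCC4 line, so an effect of the gene and an effect of the line cannot be told apart. The labels do not say whether the 3 samples of a group came from separate cultures, so that p-values measure only the spread between these samples, which may be technical.

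Cohesin is a ring-shaped protein complex that embraces DNA, holds sister chromatids together and forms chromatin loops between distant sites. The SCC2/SCC4 complex (NIPBL and MAU2) brings cohesin onto DNA and promotes the growth of loops, CTCF bound to DNA is where many loops end, and WAPL takes cohesin off DNA again. Loops bring enhancers and promoters together or keep them apart, and cohesin is known for its effect on developmental and cell-type-specific genes. The comparison asks which genes change their expression when SCC4 is lost.

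The RNA measurements were strand-specific, polyadenylated RNA-seq libraries, given as reads counted per gene. Total counts on genes ranged from 15647569 to 17008191 in control and from 10007646 to 15496671 in ΔSCC4, where replicate 2 was the shallowest. No 2 replicates were identical, and pairs of replicates differed with a chi-square of 10.473 to 51.995 per degree of freedom, above sampling noise. The difference between replicates 1 and 3 followed the GC content of the genes in both groups (Spearman's rho across genes 0.69 in control and 0.65 in ΔSCC4). Levels are given as CPM (TMM-scaled counts per 1000000), and cannot be compared between genes of different length. Changes are log2 fold changes of ΔSCC4 against control, positive where ΔSCC4 was higher, with their standard error (SE). The test was edgeR's quasi-likelihood test with Benjamini-Hochberg adjustment over all 12503 genes, and a gene was called at an adjusted p under 0.05. A value in brackets before an adjusted p is the log2 fold change. Where leaving out a library or another setting ended the call of a named gene, the adjusted p found then is given in brackets. Means are given with their SD (n = 3).

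The guide that was used to cut SCC4 is shown first, since it fixes what was changed. It matched chromosome 19 from 19431849 to 19431867 of GRCh37 on the minus strand, in the coding part of exon 1 of 19 of MAU2, a gene on the plus strand that runs from 19431638 to 19469563. The line gives the guide's strand 5′ to 3′, with the 19 bases of the guide and the CGG next to them, the motif that Cas9 requires, in capitals.
MAU2 guide site: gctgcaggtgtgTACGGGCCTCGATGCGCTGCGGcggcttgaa

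MAU2 was at 72.7, 62.6 and 61.3 CPM in the 3 control samples and at 0.975, 0.509 and 0.622 CPM in the 3 ΔSCC4 samples. All ΔSCC4 samples lay far below all controls, which checks the labels (log2 fold change -6.49, SE 0.23, adjusted p = 3.9e-07). NIPBL, which encodes SCC2, the partner of SCC4, was at 85.4, 107 and 151 CPM in control and at 104, 132 and 131 CPM in ΔSCC4, and these ranges overlapped (log2 fold change 0.08, SE 0.20, adjusted p = 0.847). These values are RNA, and the study reported severely reduced SCC2 protein in ΔSCC4 cells. WAPL itself had 99.2 ± 21.5 CPM in control and 85.1 ± 16.1 CPM in ΔSCC4 (-0.23, adjusted p = 0.507). Of the cohesin subunits, 6 were tested, and 1 was called. This was STAG1, one of the alternative subunits of the ring, which rose from 95.1 ± 13.5 to 155 ± 12.5 CPM (log2 fold change 0.69, SE 0.14, adjusted p = 0.0108), with no overlap between the groups. RAD21, the subunit that closes the ring, was at 452 ± 73.6 CPM in control and 427 ± 52.8 CPM in ΔSCC4 (-0.10, adjusted p = 0.749). Of 14 tested factors that load, release or acetylate cohesin, MAU2 was the 1 called, where 9.49% of all genes were called. Of 14 subunits of condensin and SMC5/6, complexes related to cohesin, NCAPD3 of condensin II fell from 233 ± 10.6 to 168 ± 5.79 CPM (log2 fold change -0.49, SE 0.11, adjusted p = 0.0221) and no other was called. None of 11 architectural DNA-binding factors was called, and CTCF was at 136 ± 8.19 CPM in control and 139.8 ± 3.02 CPM in ΔSCC4 (0.02, adjusted p = 0.932). STAG1 was not called without control replicate 2 (0.0639) or ΔSCC4 replicate 2 (0.0595). NCAPD3 was not called without control replicate 2 (0.0746), control replicate 3 (0.0559), ΔSCC4 replicate 1 (0.0925) or ΔSCC4 replicate 2 (0.109). The 4 lists had median log2 fold changes of -0.15, -0.20, -0.13 and 0.02, against -0.005 over all genes tested, and no architectural factor had an unadjusted p under 0.05 or was called by DESeq2, while 1 was called lower once counts were corrected for GC content. When the replicate number was a block (below), 46.0% of all genes were called. Then 1 higher and 2 lower of the cohesin subunits were called, and 1 higher and 7 lower of the loading, release and acetylation factors. Of condensin and SMC5/6, 1 higher and 7 lower were called, and of the architectural factors 2 higher and 2 lower.

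Within 1 Mb of MAU2, 41 genes were tested and 5 were called, MAU2 included, where 9.49% of all genes were called. Of the others, CRTC1, a coactivator of CREB, rose from 10.8 ± 1.43 to 25.8 ± 4.29 CPM (1.25, adjusted p = 0.00118), and the zinc finger gene ZNF486 fell from 1.95 ± 0.456 to 0.495 ± 0.113 CPM (-1.95, adjusted p = 0.00297). Both are named after their values were seen.

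In ΔSCC4 cells 1186 of the 12503 genes were called, 9.49% of those tested. Of these, 682 genes (5.45%) were higher and 504 genes (4.03%) were lower than in control. At an unadjusted p under 0.05 there were 2890 genes. The called rises had a median log2 fold change of 1.08 and the called falls one of -1.07. At least 2-fold changes made up 376 of the rises and 274 of the falls, and at least 4-fold changes 117 and 115. Falls of at least 16-fold (37 genes) were more frequent among the called genes than rises of that size (17 genes). The 3 values of each group did not overlap in all 682 called rises and in 496 of the 504 called falls, where 26.7% of all genes tested had groups that do not overlap. A lack of overlap thus comes with nearly every call and is no further support for a gene named below. The genes with the largest changes were also chosen among those without overlap. Protein-coding genes were 97.9% of the rises and 99.2% of the falls. The median control level was 3.74 CPM for genes that rose and 14.5 CPM for genes that fell, while it was 35.3 CPM over all genes tested. The share called was 24.8% of genes under 1 CPM on average and 22.8% of genes of 1 to 10 CPM. It was 6.51% of genes of 10 to 100 CPM and 2.88% of those at 100 CPM or more.

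**Figure D1:**
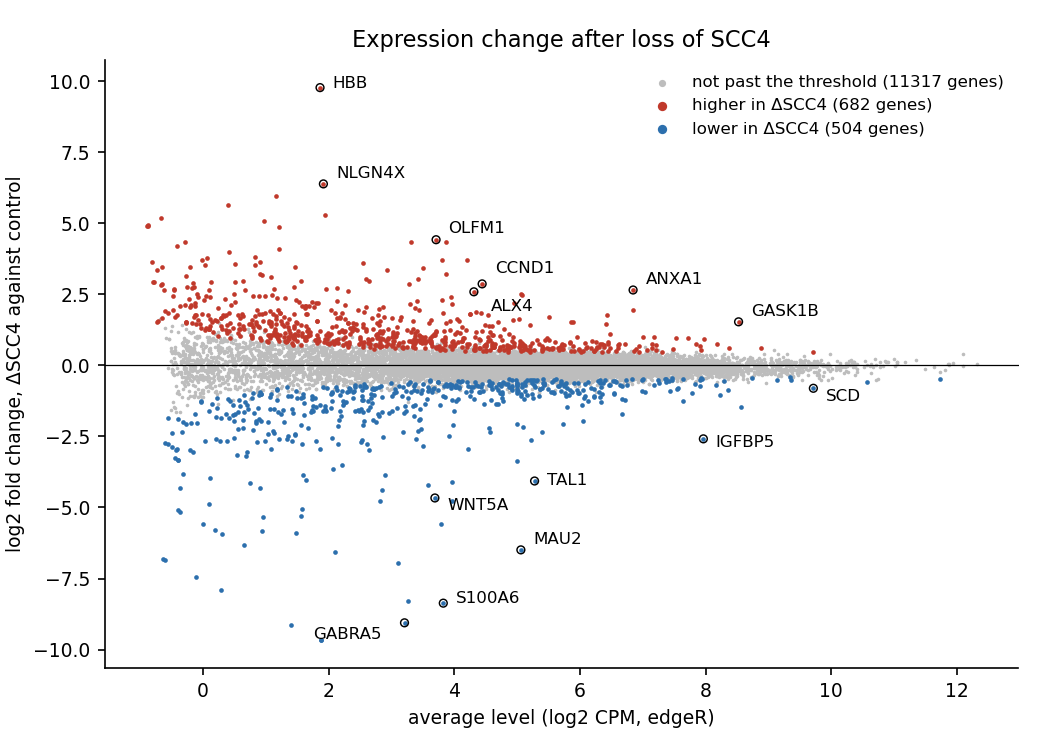
Each point is 1 of the 12503 genes tested, with its average level (log2 CPM, x axis) and its log2 fold change in ΔSCC4 against control (y axis, 3 samples against 3). The 682 genes called higher (red) and the 504 called lower (blue) lie mostly at low levels, where folds of genes with almost no counts in 1 group are fitted values and no bounds.

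The number of called genes depended on how the replicates were treated. Samples of control and ΔSCC4 with the same replicate number deviated from their group means together (correlations over genes of 0.741, 0.156 and 0.679). Control replicate 2 correlated with ΔSCC4 replicate 3 at 0.139, so the pair of replicate 2 is not clear. Blocked by replicate number, 5754 genes (46.0%) were called, 2794 higher and 2960 lower, and they included all 1186 in the same direction. A per-sample correction for GC content (GC offset) without the block gave 1974 genes, of which 41.6% were higher, against 57.5% without the correction. Of the 1186 genes, 1087 were among them in the same direction. With both, 5721 genes were called, of which 37% were higher. Genes that rose had a median GC content of 51.2% and genes that fell one of 46.8%, against 47.9% over all genes, and Spearman's rho between log2 fold change and GC content across genes was 0.28. The part of GC content in these calls was not tested. Without control replicate 1 there were 2317 genes, of which 48.1% were higher, and without control replicate 2 there were 662 genes, which included 54.5% of the 1186. For each gene named as changed below, the direction was the same in every alternative in which the gene was tested.

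The largest falls took genes from moderate levels to almost no counts. S100A6, a calcium-binding protein, was at 30.9, 29.6 and 22.5 CPM in control and at 0.065, 0.204 and 0 CPM in ΔSCC4, a ratio of 364 (95% interval 124 to 1770.0). Ratios of this kind set the higher group over the lower one, from counts summed over the samples and scaled by library size, with an exact Clopper-Pearson interval that covers counting error only. GABRA5, a subunit of the GABA-A receptor, was at 17.8, 18.9 and 16.8 CPM in control and at 0, 0 and 0.0691 CPM in ΔSCC4. Only 1 read was counted in the 3 ΔSCC4 samples together, and the ratio was 707 (95% interval 127 to 28000.0). The TCEAL9 gene on the X chromosome had 19.2, 18.6 and 17.8 CPM in control and 0.065, 0.102 and 0 CPM in ΔSCC4, a ratio of 367 (95% interval 101 to 3030.0). SLC17A9, a vesicular nucleotide transporter, was at 17.2, 16.2 and 15.8 CPM in control and at 0.13, 0.204 and 0.0691 CPM in ΔSCC4, a ratio of 130.0 (95% interval 55.5 to 401). In all 4 genes no ΔSCC4 sample came near any control sample. OLFM3 (olfactomedin 3) fell from 7.99 ± 0.257 to 0.0677 ± 0.0691 CPM, a ratio of 106 (95% interval 35.9 to 514), and SLC19A3, a thiamine transporter, fell from 5.01 ± 0.175 to 0.0773 ± 0.0684 CPM, a ratio of 66.2 (95% interval 22.4 to 323).

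A set of 3 genes with over 200 counts in control had no count in any ΔSCC4 sample. MFAP2, a protein of extracellular microfibrils, was at 8.01, 6.53 and 6.02 CPM in control, at least 90.6-fold higher than the level that 3 counts over the 3 ΔSCC4 samples would give (0.076 CPM). PPP2R2B, a regulatory subunit of protein phosphatase 2A, was at 7.42, 7.09 and 5.96 CPM in control, at least 90.2-fold higher. The metallothionein gene MT1M was at 6.05, 3.76 and 4.53 CPM in control, at least 63.2-fold higher. In total 26 called genes had under 3 counts in every ΔSCC4 library and 13 had under 3 counts in every control library.

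In the opposite direction, HBB, which encodes beta-globin, had no count in the control samples and was at 8.26, 8.35 and 5.87 CPM in ΔSCC4, at least 121-fold higher than the level of 3 counts over the controls (0.062 CPM). NLGN4X, a neuroligin of the synaptic membrane, was at 0.0651, 0.0616 and 0.119 CPM in control and at 5.98, 8.24 and 8.84 CPM in ΔSCC4, a ratio of 91.7 (95% interval 35.5 to 339). COL5A1, a fibrillar collagen, was at 0, 0.123 and 0.0596 CPM in control and at 5.4, 3.87 and 3.94 CPM in ΔSCC4, a ratio of 72.3 (95% interval 24.4 to 354). HBB and MT1M belong to families with close copies, between which reads could be split or lost in a way that the counting notes do not give.

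Among genes with clear counts in both groups, OLFM1 (olfactomedin 1, secreted by neurons) was at 1.24, 0.925 and 1.37 CPM in control and at 27, 27.4 and 22.5 CPM in ΔSCC4, a separation of the groups far beyond their spread (log2 fold change 4.42, SE 0.20, adjusted p = 7.84e-07). TMEM132E, a membrane protein, was at 1.76, 1.11 and 1.25 CPM in control and at 30.5, 25 and 29.1 CPM in ΔSCC4 (log2 fold change 4.35, SE 0.21, adjusted p = 9.52e-07). JAKMIP3, an exception with few counts in control, rose from 0.184 ± 0.0989 to 7.6 ± 1.47 CPM (5.29, adjusted p = 5.88e-06), so the size of its change is uncertain. SDK1, an adhesion molecule of synapses, was at 1.5, 1.97 and 2.5 CPM in control and at 28.7, 25.5 and 25.1 CPM in ΔSCC4 (log2 fold change 3.71, SE 0.20, adjusted p = 2.15e-06). None of these genes had overlapping groups. TAL1, a transcription factor of blood stem cells and erythroid cells, was at 79.1, 71.4 and 68.2 CPM in control and at 4.68, 4.68 and 3.8 CPM in ΔSCC4. All ΔSCC4 samples were below all controls (log2 fold change -4.07, SE 0.16, adjusted p = 3.9e-07).

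In absolute amounts, the gains in CPM included GASK1B, a Golgi-associated kinase, which was at 163, 197 and 212 CPM in control and at 502, 609.7 and 556 CPM in ΔSCC4 (log2 fold change 1.53, SE 0.14, adjusted p = 5.2e-05). ANXA1, an annexin that binds phospholipids, was at 32.6, 32.4 and 30.6 CPM in control and at 191, 242 and 173 CPM in ΔSCC4 (log2 fold change 2.65, SE 0.15, adjusted p = 3.23e-06). ATP10D, a phospholipid flippase, rose from 177 ± 29.1 to 334 ± 50.3 CPM (0.91, adjusted p = 0.00416). The losses included HSP90AA1, a chaperone, which fell from 4003 ± 242 to 2889 ± 359.7 CPM (log2 fold change -0.48, SE 0.12, adjusted p = 0.0342), and SCD, the desaturase that makes monounsaturated fatty acids, which was at 1102, 1032 and 1095 CPM in control and at 619, 642 and 602 CPM in ΔSCC4 (log2 fold change -0.81, SE 0.11, adjusted p = 0.000819). ZFAND5, a zinc finger protein of protein degradation, fell from 561 ± 113 to 206 ± 28.8 CPM (-1.46, adjusted p = 0.000324). IGFBP5, a secreted binding protein of insulin-like growth factors, was at 431, 421 and 439 CPM in control and at 69.9, 70.3 and 76.6 CPM in ΔSCC4 (log2 fold change -2.59, SE 0.12, adjusted p = 7.84e-07). None of the genes named here had overlapping groups. HSP90AA1 was not called without control replicate 2 (0.148), control replicate 3 (0.0587), ΔSCC4 replicate 1 (0.135), ΔSCC4 replicate 2 (0.0559) or ΔSCC4 replicate 3 (0.0922) or with all 6 controls (0.146).

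**Figure D2:**
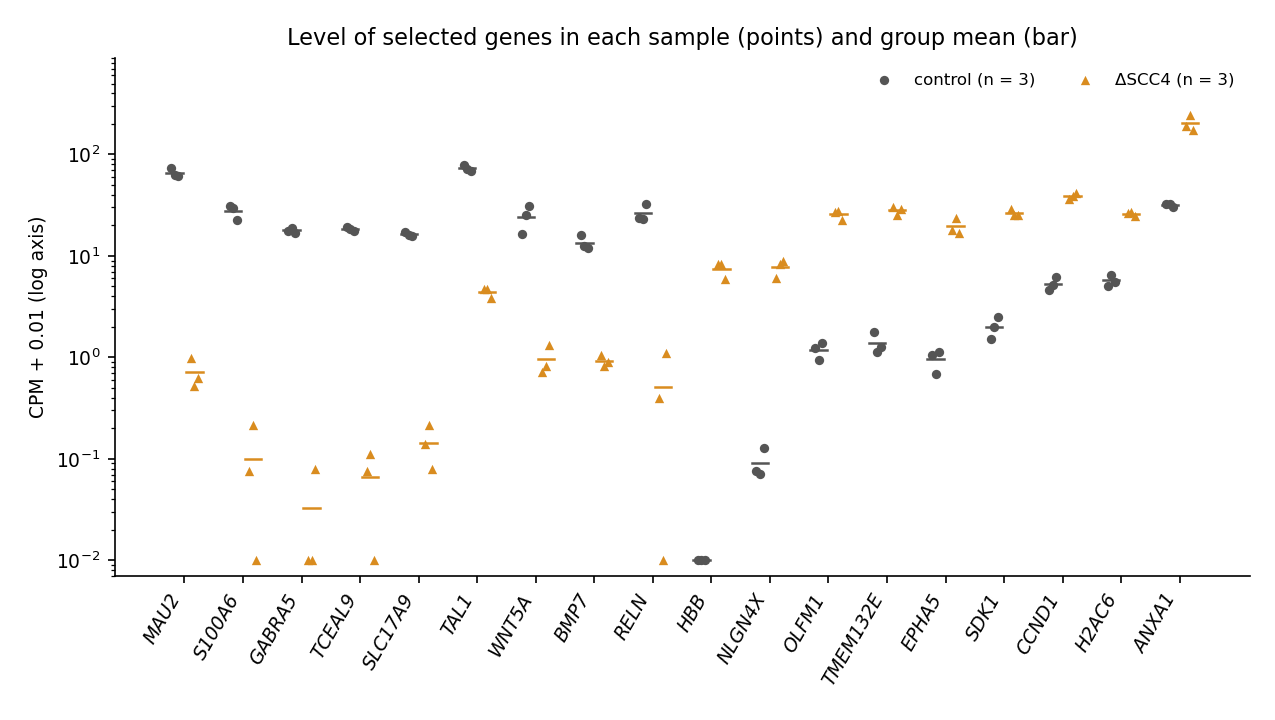
CPM on a log axis (with a small constant added so that 0 can be drawn) for 18 genes in the 3 control samples (circles) and the 3 ΔSCC4 samples (triangles), with the mean of each group as a bar. In every gene shown the groups lie apart, as in nearly all called genes. The 9 genes that fell are on the left and the 9 that rose on the right.

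Transcription factors that specify cell types in development changed in both directions. Of 93 tested SOX, FOX, GATA and other lineage factors 14 rose and 6 fell (21.5% called, 32 and 22 with the block, 13 and 8 with the GC offset, 25 and 26 with both, median 0.13), and of 85 homeobox genes outside the HOX clusters 9 rose and 3 fell (14.1% called, 28 and 10 with the block, median 0.14). Over all genes 9.49% were called, 22.8% of those of 1 to 10 CPM, and 46.0% with the block. Among the homeobox genes, ALX4, a factor of skull and limb development, was at 7.1, 5.05 and 5 CPM in control and at 38.1, 32.6 and 33.2 CPM in ΔSCC4 (log2 fold change 2.59, SE 0.18, adjusted p = 1.3e-05). IRX4, known from the heart ventricle, rose from 0.142 ± 0.0881 to 2.46 ± 0.226 CPM (4.0, adjusted p = 6.95e-05), and EMX1, known from the cortex, rose from 0.335 ± 0.171 to 2.65 ± 0.562 CPM (2.98, adjusted p = 0.000379). PAX7, a factor of muscle stem cells, had 1 count in the controls and 42 in ΔSCC4, a ratio of 51.2 (95% interval 8.7 to 2070.0). Among the lineage factors, ETV1 rose from 2.36 ± 0.457 to 17.6 ± 3.17 CPM (2.87, adjusted p = 1.59e-05) and SOX1, a factor of early neural cells, rose from 1.8 ± 0.384 to 7.86 ± 0.503 CPM (2.11, adjusted p = 9.06e-05). The OLIG factors of oligodendrocytes and motor neurons fell. OLIG1 was at 8.27, 7.21 and 6.43 CPM in control and at 0.52, 0.204 and 0.898 CPM in ΔSCC4 (log2 fold change -3.66, SE 0.32, adjusted p = 4.44e-05). Its neighbour OLIG2 was at 23, 18.7 and 17 CPM in control and at 9.49, 5.5 and 6.98 CPM in ΔSCC4 (log2 fold change -1.41, SE 0.21, adjusted p = 0.00185), and OLIG3, on another chromosome, fell from 2.28 ± 0.233 to 0.249 ± 0.148 CPM (-3.14, adjusted p = 0.000321). The groups overlapped in none of these genes.

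HOX genes, which give position along the body axis and lie in clusters, were mostly not called. The shares over all genes were 9.49%, or 22.8% at 1 to 10 CPM, and 46.0% with the block. Of 26 tested, 3 rose and 2 fell (19.2% called, 9 and 4 with the block, median 0.19). HOXC11 fell from 1.87 ± 0.402 to 0.0339 ± 0.0588 CPM, with 1 count left in ΔSCC4 and a ratio of 73.8 (95% interval 12.9 to 2950.0). HOXD3 rose from 5.3 ± 1.07 to 10.1 ± 1.94 CPM (0.91, adjusted p = 0.0186). HOXD3 was not called without control replicate 2 (0.0968) or with the GC offset (0.15). Of 15 tested clustered protocadherins, whose promoter choice depends on CTCF and cohesin, 2 rose and 1 fell (20% called, 6 and 2 with the block, median 0.43). PCDHB5 rose from 7.65 ± 0.589 to 21.8 ± 1.83 CPM (1.50, adjusted p = 0.00013) and PCDHAC2 fell from 1.97 ± 0.307 to 0.694 ± 0.248 CPM (-1.44, adjusted p = 0.0127).

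Genes of cell adhesion and of the guidance of growing axons changed in both directions as well. For comparison, 9.49% of all genes were called, 22.8% of those of 1 to 10 CPM, and 46.0% of all with the block. Of 30 adhesion molecules of the immunoglobulin type 5 rose and 5 fell (33.3% called, 9 and 13 with the block, median -0.09), of 23 cadherins 6 rose and 4 fell (43.5% called, 8 and 8 with the block, 6 and 5 with the GC offset, 6 and 9 with both, median 0.12), of 21 Eph receptors and ephrins 3 rose and 4 fell (33.3% called, 7 and 4 with the block, median 0.13, or -0.03 with the GC offset), and of 28 semaphorins, plexins and neuropilins 5 rose and 6 fell (39.3% called, 11 and 10 with the block, 5 and 8 with the GC offset, 8 and 13 with both, median 0.13, or -0.10 with the offset). CNTN1 (contactin 1) was at 15.3, 16.2 and 21 CPM in control and at 2.8, 2.44 and 3.45 CPM in ΔSCC4 (log2 fold change -2.59, SE 0.20, adjusted p = 2.48e-05). CADM1 fell from 23.7 ± 2.21 to 7.74 ± 1.56 CPM (-1.62, adjusted p = 0.000222), while CADM2, of the same family, rose from 3.09 ± 0.435 to 9.94 ± 1.25 CPM (1.67, adjusted p = 0.000229). VCAM1, an adhesion molecule for leukocytes, fell from 1.78 ± 0.546 to 0.267 ± 0.107 CPM (-2.66, adjusted p = 0.00191). Among the cadherins, PCDH9 was at 9.05, 9.12 and 12.6 CPM in control and at 50.2, 59.2 and 65 CPM in ΔSCC4 (log2 fold change 2.49, SE 0.18, adjusted p = 1.43e-05), and CDH3, placental cadherin, fell from 2.6 ± 0.442 to 0.615 ± 0.103 CPM (-2.04, adjusted p = 0.00087). PCDH8 rose from 0.188 ± 0.124 to 1.28 ± 0.477 CPM (2.76, adjusted p = 0.00507) and FAT3 rose from 0.471 ± 0.187 to 2.22 ± 0.716 CPM (2.21, adjusted p = 0.00298).

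Related receptors moved apart within their families. Among all genes tested 9.49% were called, 22.8% of those of 1 to 10 CPM, and 46.0% of all with the block. EPHA5 was at 1.04, 0.678 and 1.13 CPM in control and at 18.1, 23.5 and 16.9 CPM in ΔSCC4 (log2 fold change 4.33, SE 0.24, adjusted p = 2.15e-06), and EPHA8 rose from 0.317 ± 0.241 to 2.39 ± 0.502 CPM (2.93, adjusted p = 0.00113). EPHA7 was at 9.11, 9.92 and 11.7 CPM in control and at 1.37, 1.32 and 1.8 CPM in ΔSCC4 (log2 fold change -2.77, SE 0.21, adjusted p = 1.76e-05), and the ligand EFNA5 fell from 44.4 ± 8.8 to 22.4 ± 4.35 CPM (-0.99, adjusted p = 0.00784). The groups overlapped in none of these Eph genes. The semaphorins, secreted or membrane-bound repellents, fell in the cases of SEMA3D (from 8.54 ± 1.52 to 2.77 ± 0.656 CPM, log2 fold change -1.64, adjusted p = 0.000998), SEMA3C (-2.95, adjusted p = 0.00426) and SEMA4A, which had 4 counts in ΔSCC4 and 50 in control. SEMA5A rose from 1.05 ± 0.283 to 3.29 ± 0.747 CPM (1.64, adjusted p = 0.00311). Of 14 latrophilins, teneurins, FLRT proteins, neurexins and neuroligins, which pair across synapses, 2 rose and 1 fell (21.4% called, 6 and 4 with the block, median 0.16). The rises were NLGN4X and TENM1. ADGRL3 (latrophilin 3) was at 21.4, 30.7 and 34.6 CPM in control and at 1.63, 1.22 and 2.07 CPM in ΔSCC4 (log2 fold change -4.11, SE 0.25, adjusted p = 4.96e-06). TENM1 rose from 0.693 ± 0.389 to 4.78 ± 0.481 CPM (2.74, adjusted p = 0.000249). GJA1, the gap junction protein connexin 43, was at 0.977, 2.1 and 1.07 CPM in control and at 11.6, 17.4 and 14.1 CPM in ΔSCC4 (log2 fold change 3.35, SE 0.28, adjusted p = 3.23e-05), and of 11 claudins and connexins 2 rose and 2 fell (36.4% called, 3 and 4 with the block, median -0.17). Of 19 integrins 1 rose and 0 fell (5.26% called, 6 and 4 with the block, median 0.06), and ITGB8 rose from 4.39 ± 1.07 to 13.3 ± 2.61 CPM (1.58, adjusted p = 0.00106).

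Of 56 tested matrix genes 8 rose and 14 fell (39.3% called, 20 and 22 with the block, median -0.10). Against this, 9.49% of all genes were called, 22.8% of those of 1 to 10 CPM, and 46.0% of all with the block. SPARC, a matrix protein that binds collagen, was at 63.2, 55.9 and 48.6 CPM in control and at 14, 11.8 and 11.5 CPM in ΔSCC4 (log2 fold change -2.18, SE 0.16, adjusted p = 1.59e-05). THBS1 (thrombospondin 1) fell from 2.56 ± 0.721 to 0.305 ± 0.11 CPM (-3.06, adjusted p = 0.000552), while the laminin chain LAMA3 rose from 1.39 ± 0.498 to 8.6 ± 1.18 CPM (2.60, adjusted p = 8.6e-05). Of 48 matrix proteases and inhibitors 8 rose and 5 fell (27.1% called, 18 and 13 with the block, 6 and 9 with the GC offset, 15 and 19 with both, median 0.03, or -0.04 with the offset). MMP2, a gelatinase, was at 0.586, 1.48 and 1.37 CPM in control and at 8.26, 8.86 and 6.29 CPM in ΔSCC4 (log2 fold change 2.73, SE 0.28, adjusted p = 0.000142). The protease inhibitor TFPI2 rose from 2.28 ± 0.267 to 8.88 ± 0.766 CPM (1.94, adjusted p = 6.98e-05), and PLAUR, the urokinase receptor, fell from 6.78 ± 0.791 to 1.99 ± 0.466 CPM (-1.79, adjusted p = 0.000434).

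Genes of excitable cells changed in both directions. Here too the share over all genes was 9.49%, or 22.8% at 1 to 10 CPM, and 46.0% with the block. Of 74 tested ion channels 18 rose and 11 fell (39.2% called, 29 and 14 with the block, median 0.11). KCNQ5, a potassium channel, was at 0.0651, 0.123 and 0.238 CPM in control and at 4.16, 4.58 and 4.84 CPM in ΔSCC4 (log2 fold change 4.88, SE 0.33, adjusted p = 9.21e-06). HCN4, the channel of the cardiac pacemaker current, was at 0.0651, 0.185 and 0.477 CPM in control and at 4.68, 4.38 and 4.08 CPM in ΔSCC4 (log2 fold change 4.09, SE 0.38, adjusted p = 6.49e-05). Both genes were close to the detection limit in control and clearly counted in all 3 ΔSCC4 samples. TRPC4 had no count in ΔSCC4 and 0.97 ± 0.0893 CPM in control, at least 12.8-fold higher. The potassium channel KCNH5 and the calcium channel CACNA1I each had 1 count in ΔSCC4, with ratios of 46.8 (95% interval 8.06 to 1880.0) and 45.1 (95% interval 7.77 to 1810.0). Of 28 neurotransmitter receptors 5 rose and 6 fell (39.3% called, 8 and 9 with the block, median -0.09). CHRM3, a muscarinic acetylcholine receptor, was at 1.82, 2.65 and 3.57 CPM in control and at 0, 0 and 0.0691 CPM in ΔSCC4, a ratio of 107 (95% interval 19 to 4280.0). GRIA2, a glutamate receptor subunit, fell from 3.6 ± 1.21 to 0.605 ± 0.0489 CPM (-2.57, adjusted p = 0.000602), while the kainate receptor subunit GRIK3 rose from 3 counts to 35, a ratio of 14.2 (95% interval 4.48 to 72.3). Of 26 genes of the neuronal cytoskeleton and synapse 4 rose and 6 fell (38.5% called, 9 and 13 with the block, median -0.15). RELN (reelin), a secreted protein that positions migrating neurons, was at 23.6, 23.2 and 32.4 CPM in control and at 0.39, 0 and 1.11 CPM in ΔSCC4 (log2 fold change -5.58, SE 0.45, adjusted p = 2.64e-05). SYT4, a synaptotagmin, kept 1 count in ΔSCC4, a ratio of 63.2 (95% interval 11 to 2530.0).

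In signalling pathways, ligands, inhibitors and receptors were among the called genes. Over all genes 9.49% were called, 22.8% of those of 1 to 10 CPM, and 46.0% of all with the block. Of 41 genes of the WNT pathway 5 rose and 2 fell (17.1% called, 11 and 11 with the block, 5 and 8 with the GC offset, 8 and 14 with both, median -0.03). The ligand WNT5A was at 16.5, 25.5 and 30.9 CPM in control and at 0.715, 0.814 and 1.31 CPM in ΔSCC4 (log2 fold change -4.67, SE 0.31, adjusted p = 8.58e-06). FZD10, a WNT receptor, had no count in ΔSCC4, at least 12.6-fold lower than its 0.953 ± 0.262 CPM in control. APCDD1, an inhibitor of the pathway, rose from 0.391 ± 0.145 to 1.39 ± 0.169 CPM (1.81, adjusted p = 0.00691). Other receptors and other antagonists of the pathway were among the rises as well. Of 45 genes of the BMP and TGF-beta pathways 5 rose and 4 fell (20% called, 12 and 12 with the block, 5 and 5 with the GC offset, 12 and 13 with both, median -0.06). The ligand BMP7 was at 15.9, 12.5 and 11.9 CPM in control and at 1.04, 0.814 and 0.898 CPM in ΔSCC4 (log2 fold change -3.85, SE 0.23, adjusted p = 3.25e-06). The ligand GDF3 rose from 1.06 ± 0.265 to 6.81 ± 0.24 CPM (2.67, adjusted p = 2.92e-05). In none of these genes did the groups overlap.

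Of 54 genes of the FGF, EGF and PDGF families 8 rose and 6 fell (25.9% called, 18 and 12 with the block, 8 and 8 with the GC offset, 12 and 17 with both, median 0.13, or -0.04 with the offset). The share over all genes was 9.49%, or 22.8% at 1 to 10 CPM, and 46.0% with the block. PDGFRA, a PDGF receptor, was at 9.05, 14.1 and 13.9 CPM in control and at 25.8, 32.7 and 41.4 CPM in ΔSCC4 (log2 fold change 1.42, SE 0.22, adjusted p = 0.00204). The ligands KITLG and NRG1 fell, KITLG from 10.6 ± 1.07 to 3 ± 0.66 CPM (-1.80, adjusted p = 0.000226) and NRG1 to 2 counts in ΔSCC4, a ratio of 23 (95% interval 6.07 to 194). VEGFC, a growth factor of lymphatic vessels, rose from 1.05 ± 0.21 to 2.98 ± 0.135 CPM (1.49, adjusted p = 0.00194). Of 30 genes of the NOTCH pathway 2 rose and 3 fell (16.7% called, 11 and 6 with the block, 2 and 4 with the GC offset, 5 and 11 with both, median 0.04, or -0.13 with the offset), with rises of the ligand DLL1 (0.83, adjusted p = 0.0055) and of DTX1 (1.50, adjusted p = 0.00116) and a fall of DLK1 to 3 counts, a ratio of 15.6 (95% interval 5.07 to 77.8). Of 18 genes of the IGF axis 2 rose and 1 fell (16.7% called, 6 and 3 with the block, median 0.16). IGF2 rose from 2.01 ± 0.277 to 7.23 ± 0.748 CPM (1.84, adjusted p = 0.000162) and IGFBP5 fell, as given above. CCN1, a secreted target of YAP, fell from 50.8 ± 4.29 to 25.2 ± 2.6 CPM (-1.02, adjusted p = 0.00101). Of 26 hedgehog and Hippo genes 2 rose and 1 fell (11.5% called, 7 and 7 with the block, 1 and 2 with the GC offset, 3 and 8 with both, median -0.03). Another CCN gene of this list was among the rises, against the direction of CCN1.

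Genes of the cell cycle were called in both directions, where 9.49% of all genes were called and 46.0% with the block. Of 27 G1 cyclins, kinases and inhibitors 4 rose and 1 fell (18.5% called, 6 and 12 with the block, median -0.20). CCND1 (cyclin D1), which drives entry into S phase, was at 4.56, 5.18 and 6.14 CPM in control and at 36.7, 38.7 and 41.5 CPM in ΔSCC4 (log2 fold change 2.86, SE 0.16, adjusted p = 2.99e-06). CCND2 (cyclin D2) rose from 18.8 ± 4.24 to 40.4 ± 10.1 CPM (1.10, adjusted p = 0.00898). The inhibitors of the cyclin D kinases CDKN2A and CDKN2C rose as well, CDKN2A from 39.6 ± 4.37 to 66.7 ± 7.62 CPM (0.74, adjusted p = 0.00982) and CDKN2C from 63.4 ± 7.01 to 106 ± 6.41 CPM (0.72, adjusted p = 0.00664). MXD4, which competes with MYC for MAX, rose from 30.6 ± 6.05 to 88.7 ± 13.8 CPM (1.53, adjusted p = 0.000394), and of 20 genes of the MYC and MAX network 1 rose and 0 fell (5% called, 4 and 8 with the block, median -0.11). CCND2 was not called with all 6 controls (0.235). CDKN2A was not called without control replicate 2 (0.0661).

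Of 64 tested DNA replication genes 0 rose and 5 fell (7.81% called, 1 and 45 with the block, median -0.30). CDC6, which loads the replicative helicase, was at 130.3, 137 and 135 CPM in control and at 77.8, 80.1 and 92.7 CPM in ΔSCC4 (log2 fold change -0.69, SE 0.13, adjusted p = 0.00578). MCM6, a subunit of that helicase, fell from 377 ± 18.1 to 259.7 ± 20.3 CPM (-0.55, adjusted p = 0.0125), PRIM1, a primase, fell from 63.4 ± 2.44 to 41 ± 2.49 CPM (-0.64, adjusted p = 0.00872) and MCM10 fell from 102 ± 23.7 to 61 ± 14.4 CPM (-0.75, adjusted p = 0.0495), with overlapping groups for MCM10. Of 48 genes of homologous recombination and the damage response 1 rose and 4 fell (10.4% called, 2 and 27 with the block, median -0.28), among them FANCD2 (from 123 ± 11.6 to 77 ± 16 CPM, log2 fold change -0.69, adjusted p = 0.024) and RAD54L (from 72.4 ± 3.21 to 47.8 ± 4.45 CPM, log2 fold change -0.61, adjusted p = 0.0141). Of 57 genes of the spindle checkpoint and kinetochore 0 rose and 2 fell (3.51% called, 4 and 28 with the block, median -0.17), including the checkpoint kinase BUB1 (-0.52, adjusted p = 0.0482). Without the block 9.49% of all genes were called, and with it 46.0%, 2794 higher and 2960 lower. MCM6 was not called without control replicate 2 (0.0717), ΔSCC4 replicate 1 (0.0636) or ΔSCC4 replicate 2 (0.064). PRIM1 was not called without control replicate 2 (0.0573). MCM10 was not called without control replicate 2 (0.194), control replicate 3 (0.0828), ΔSCC4 replicate 1 (0.144) or ΔSCC4 replicate 2 (0.175) or with at least 10 counts in every sample (0.064). FANCD2 was not called without control replicate 2 (0.0942), ΔSCC4 replicate 1 (0.0838) or ΔSCC4 replicate 2 (0.12). RAD54L was not called without control replicate 2 (0.0758), ΔSCC4 replicate 2 (0.0628) or ΔSCC4 replicate 3 (0.0561). BUB1 was not called without control replicate 2 (0.21), control replicate 3 (0.0964), ΔSCC4 replicate 1 (0.18) or ΔSCC4 replicate 2 (0.112) or with at least 10 counts in every sample (0.059).

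Histone genes were called in 1 direction, where 9.49% of all genes were called and 46.0% with the block. Of 19 tested 7 rose and 0 fell (36.8% called, 9 and 0 with the block, median 0.34), and 15 of the 19 had a higher mean in ΔSCC4. With the GC offset 7 higher and 1 lower were called. H2AC6, a histone H2A gene, was at 5.08, 6.53 and 5.54 CPM in control and at 26.5, 26.9 and 24.6 CPM in ΔSCC4 (log2 fold change 2.17, SE 0.16, adjusted p = 1.32e-05). H1-2, a linker histone gene, was at 8.98, 10.6 and 8.58 CPM in control and at 38.9, 36.3 and 27.8 CPM in ΔSCC4 (log2 fold change 1.86, SE 0.17, adjusted p = 6.98e-05). The histone H2B gene H2BC5 was at 2.54, 2.65 and 3.34 CPM in control and at 10.4, 12.1 and 11.5 CPM in ΔSCC4 (log2 fold change 1.97, SE 0.18, adjusted p = 5.92e-05). In these 3 genes the lowest ΔSCC4 sample was at more than 2 times the highest control sample. H2BC21 rose from 8.03 ± 1.23 to 25.3 ± 3.48 CPM (1.64, adjusted p = 0.000163) and H2BC4 rose from 0.819 ± 0.278 to 2.09 ± 0.516 CPM (1.29, adjusted p = 0.0254). Histone mRNAs made in S phase mostly lack a poly(A) tail and histone genes have near-identical copies, so these counts come from the polyadenylated share of the RNA, and the assignment to single copies is uncertain. H2BC4 was not called without control replicate 2 (0.0967) or ΔSCC4 replicate 2 (0.095).

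The promoters of these 3 genes are shown because histone promoters are known for shared elements, among them the CCAAT box and the octamer ATTTGCAT. Each line gives the 250 bases before the start of the gene, 5′ to 3′ on the strand of the gene, from RefSeq (GRCh38.p14), with every CCAAT and every ATTTGCAT on either strand in capitals, where no CCAAT overlaps an ATTTGCAT.
H2AC6 promoter, chr6:26123922-26124171, plus strand: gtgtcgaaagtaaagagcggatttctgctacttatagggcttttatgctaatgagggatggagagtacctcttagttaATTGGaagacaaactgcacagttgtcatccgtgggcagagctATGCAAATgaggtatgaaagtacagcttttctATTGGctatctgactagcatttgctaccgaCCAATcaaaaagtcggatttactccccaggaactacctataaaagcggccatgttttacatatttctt
H1-2 promoter, chr6:26056471-26056720, minus strand: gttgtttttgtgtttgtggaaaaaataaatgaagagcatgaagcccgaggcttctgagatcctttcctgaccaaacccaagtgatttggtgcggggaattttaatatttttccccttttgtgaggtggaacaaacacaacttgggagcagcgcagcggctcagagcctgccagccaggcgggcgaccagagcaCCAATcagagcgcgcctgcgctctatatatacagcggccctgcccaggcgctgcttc
H2BC5 promoter, chr6:26157871-26158120, plus strand: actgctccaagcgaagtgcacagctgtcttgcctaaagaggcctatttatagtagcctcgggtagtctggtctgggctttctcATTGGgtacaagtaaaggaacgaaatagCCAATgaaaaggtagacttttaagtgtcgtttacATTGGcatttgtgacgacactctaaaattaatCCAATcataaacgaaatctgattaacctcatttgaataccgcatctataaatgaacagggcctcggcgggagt
H2AC6 held CCAAT 3 times and ATTTGCAT 1 time, H2BC5 held CCAAT 4 times and H1-2 held it 1 time, both without ATTTGCAT. CCAAT stood in 39 of 42 promoters (92.9%) of the 36 histone genes matched by symbol, in all 9 promoters of the 7 called histone genes and in 32.0% of all 35116 promoters. ATTTGCAT stood in 14 of these 42 histone promoters (33.3%), in 5 of the 9 promoters of called genes (55.6%) and in 1.63% of all promoters. Over all tested histone genes, called or not, 91.7% of promoters held CCAAT and 37.5% held ATTTGCAT.

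Of 37 tested genes of cholesterol and fatty acid synthesis 1 rose and 9 fell (27% called, 2 and 25 with the block, median -0.34). Over all genes 9.49% were called, and 46.0% with the block. The falls included SCD, given above, the sterol oxidase MSMO1, which fell from 86.2 ± 17.3 to 47.1 ± 10.7 CPM (-0.88, adjusted p = 0.0183), and the fatty acid elongase ELOVL6, which fell from 92.4 ± 23 to 53.5 ± 8.24 CPM (-0.80, adjusted p = 0.0261). ABCG1, which exports cholesterol from cells, was at 0.326, 0.37 and 0.119 CPM in control and at 4.1, 3.77 and 1.93 CPM in ΔSCC4 (log2 fold change 3.54, SE 0.43, adjusted p = 0.000434), and was the 1 rise. ABCG1 is an exporter and not an enzyme of synthesis. With the GC offset, 1 higher and 19 lower were called. MSMO1 was not called without control replicate 2 (0.0967), ΔSCC4 replicate 1 (0.0532) or ΔSCC4 replicate 2 (0.08). ELOVL6 was not called without control replicate 2 (0.101), ΔSCC4 replicate 1 (0.0815) or ΔSCC4 replicate 2 (0.0861).

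Several lists of housekeeping genes held no called gene, where 9.49% of all genes were called and 46.0% with the block. None of 81 cytoplasmic ribosomal protein genes, 80 nuclear genes of oxidative phosphorylation, 48 translation factors or 57 Mediator subunits and elongation factors of transcription passed the threshold of edgeR's quasi-likelihood test. Their medians were 0.05, 0.07, -0.03 and 0.03 on the log2 scale. With the block, these lists gave 21 higher and 3 lower, 25 higher and 1 lower, 8 higher and 8 lower, and 10 higher and 9 lower, in that order. At an unadjusted p under 0.05 they held 0, 1, 4 and 8 genes, and DESeq2 called 1 translation factor higher and 1 Mediator or elongation factor lower. With the GC offset 1 of the latter was called lower, and with the offset and the block 6 higher and 14 lower. Of 48 polycomb and KMT2 group regulators 2 rose and 0 fell (4.17% called, 14 and 12 with the block, 2 and 2 with the GC offset, 9 and 16 with both, median 0.05, or -0.09 with the offset).

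Genes of stress and innate immune responses were called in both directions. Over all genes 9.49% were called, 22.8% of those of 1 to 10 CPM, and 46.0% of all with the block. Of 27 p53 targets 2 rose and 0 fell (7.41% called, 6 and 2 with the block, median 0.05, or -0.02 with the GC offset), of 40 targets of the integrated stress response 2 rose and 1 fell (7.5% called, 12 and 6 with the block, 5 and 5 with the GC offset, 9 and 15 with both, median 0.03, or -0.08 with the offset), of 24 genes of the unfolded protein response 0 rose and 1 fell (4.17% called, 3 and 13 with the block, median -0.16), and of 17 heat shock genes 0 rose and 1 fell (5.88% called, 1 and 9 with the block, median -0.19), HSP90AA1 being the 1 called. Of 37 genes of the oxidative stress and metal response 2 rose and 4 fell (16.2% called, 5 and 15 with the block, median -0.10), MT1M among them. Of 42 interferon-stimulated genes 0 rose and 3 fell (7.14% called, 12 and 7 with the block, median 0.08). The falls were IFI16, a sensor of nuclear DNA, from 4.25 ± 0.6 to 0.701 ± 0.35 CPM (-2.68, adjusted p = 0.000329), the immunoproteasome subunit PSMB8, from 13.8 ± 1.97 to 4.59 ± 0.745 CPM (-1.60, adjusted p = 0.000328), and IFITM1, from 12.2 ± 0.687 to 4.37 ± 0.503 CPM (-1.49, adjusted p = 0.000226). The median of the interferon list had the opposite sign to its called members. Of 10 complement genes 1 rose and 3 fell (40% called, 1 and 5 with the block, median -0.20). C3, the central complement protein, was at 7.55, 6.53 and 6.55 CPM in control and at 1.89, 1.93 and 0.967 CPM in ΔSCC4 (log2 fold change -2.14, SE 0.25, adjusted p = 0.000295), C1R fell from 55.2 ± 6.93 to 26.6 ± 4.13 CPM (-1.06, adjusted p = 0.00191), and CD55, an inhibitor of complement on the cell surface, fell from 45.3 ± 7.68 to 24.7 ± 2.11 CPM (-0.89, adjusted p = 0.00507).

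**Figure D3:**
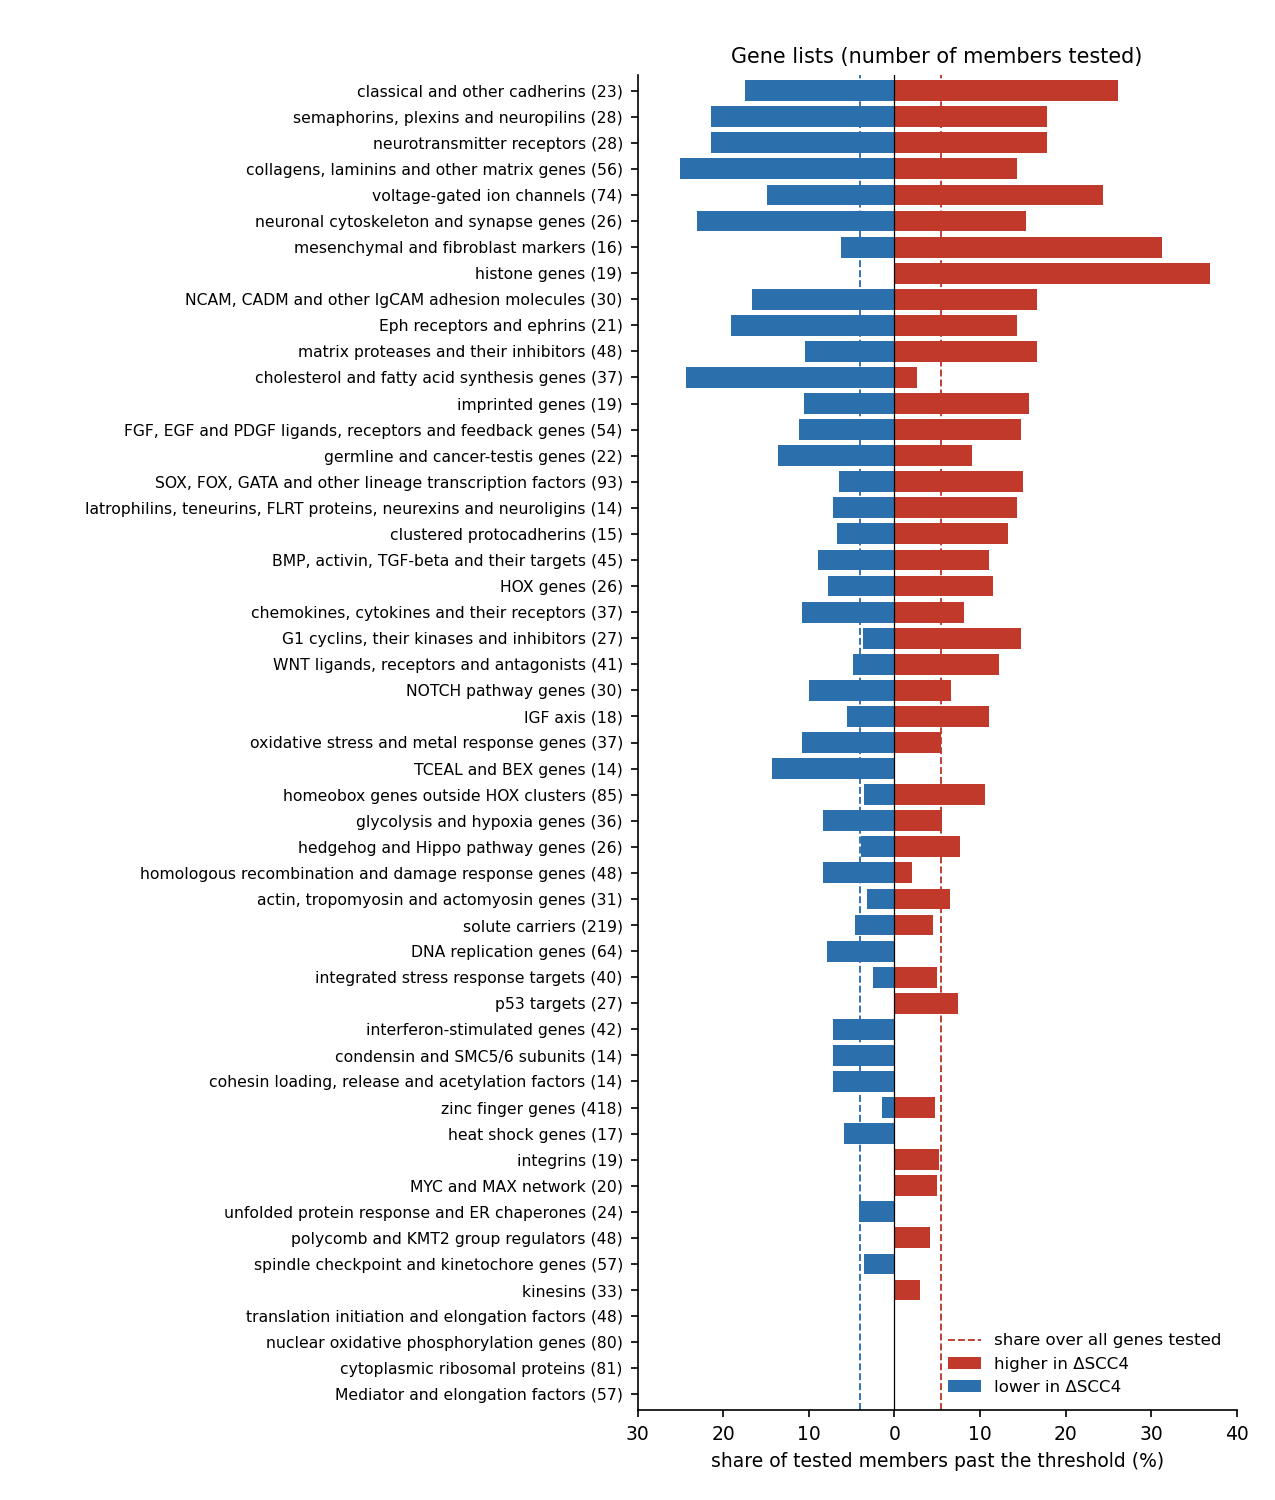
Share of tested members of each gene list called higher (red, right) and lower (blue, left) in ΔSCC4 against control, in percent, for lists with at least 14 tested members (their number in brackets). The dashed lines mark the shares over all genes, 5.45% higher and 4.03% lower, which the cadherin, matrix and channel lists pass on both sides and ribosomal, oxidative phosphorylation and Mediator lists do not reach on either side.

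Markers of cell types were read as a check of the line. HAP1 descends from a leukaemia line but grows attached, and of 30 haematopoietic markers 9 were tested and 8, among them GATA1, SPI1 and MPO, had no count in any of the 6 samples. Their summed level was 167 to 169.7 CPM in control and 106 to 107 CPM in ΔSCC4. TAL1 alone, given above, fell by more CPM than this sum, so the lower sum rests on TAL1. Of the tested haematopoietic markers, those that rose were HBB and IKZF1 (from 0.252 ± 0.168 to 1.35 ± 0.424 CPM, log2 fold change 2.34, adjusted p = 0.0104), and those that fell were TAL1 and MYB (-0.66, adjusted p = 0.0408). Of 22 mesenchymal markers 16 were tested, with a sum of 994 to 1137 CPM in control and 1092 to 1133 CPM in ΔSCC4, 5 rises, COL5A1, PDGFRA and ACTA2 (0.99, adjusted p = 0.00801) among them, and 1 fall, that of SPARC. Of 18 epithelial markers 6 were tested, with a sum of 75 to 95.7 CPM in control and 81.9 to 89.5 CPM in ΔSCC4, and GRHL2 and KRT5 had no count. Of these, KRT8, a keratin of simple epithelia, fell from 8.14 ± 1.32 to 2.69 ± 0.859 CPM (-1.61, adjusted p = 0.00189), and PROM1 rose from 6.22 ± 0.865 to 22.4 ± 2.16 CPM (1.83, adjusted p = 5.93e-05). Neural progenitor markers, 10 of 16 tested, summed to 1096 to 1149 CPM in control and 1161 to 1307 CPM in ΔSCC4, with SOX1 and PROM1 among 3 rises and OLIG1 and OLIG2 as the 2 falls. Pluripotency markers, 9 of 14 tested, summed to 1324 to 1383 CPM in control and 1382 to 1628 CPM in ΔSCC4. LIN28A, an RNA-binding protein of stem cells, had 2.04 ± 0.433 CPM in control and no count in ΔSCC4, at least 27-fold lower, and TDGF1 fell from 2.71 ± 0.412 to 0.682 ± 0.168 CPM (-1.95, adjusted p = 0.00104). MYB was not called without control replicate 2 (0.156), control replicate 3 (0.109), ΔSCC4 replicate 1 (0.136) or ΔSCC4 replicate 2 (0.122) or with at least 10 counts in every sample (0.052). The part of other cell types in the changes was not tested, and in bulk RNA fewer cells that express a gene and less RNA per cell cannot be told apart.

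Among the tested genes of chromosomes 1 to 22 and X in their order, 5 runs of at least 3 neighbours were called in the same direction. The run with most genes lay on chromosome 3 from 46556875 to 46945289 of GRCh37 and held LRRC2, TDGF1, ALS2CL and PTH1R, all lower (median log2 fold change -1.60). ALS2CL was at 5.6, 5.42 and 5.6 CPM in control and at 2.28, 1.83 and 1.38 CPM in ΔSCC4 (log2 fold change -1.60, SE 0.21, adjusted p = 0.000772), and PTH1R, the parathyroid hormone receptor, was at 6.32, 5.67 and 4.23 CPM in control and at 1.95, 1.53 and 1.8 CPM in ΔSCC4 (log2 fold change -1.61, SE 0.23, adjusted p = 0.00109). LRRC2 fell from 8.99 ± 4.21 to 3.28 ± 1.4 CPM (-1.46, adjusted p = 0.0358), and its groups overlapped. FMN2, a nucleator of actin in a run on chromosome 1, was at 5.01, 8.94 and 10.1 CPM in control and at 0.585, 0.713 and 0.829 CPM in ΔSCC4 (log2 fold change -3.50, SE 0.33, adjusted p = 7.67e-05). On chromosome 8 from 68864281 to 70747213, PREX2 (-2.30, adjusted p = 0.000355), SULF1 (-2.70, adjusted p = 0.000328) and SLCO5A1 (-0.93, adjusted p = 0.0404) fell. Of the runs that rose, H1-2, H2BC4 and H2AC6 lay within 83.4 kb of chromosome 6, in the large histone cluster. CTSO (1.22, adjusted p = 0.0233), PDGFC (0.78, adjusted p = 0.0143) and GLRB (0.98, adjusted p = 0.00405) lay on chromosome 4 from 156842732 to 158093242. LRRC2 was not called without control replicate 2 (0.106), ΔSCC4 replicate 1 (0.0907) or ΔSCC4 replicate 2 (0.12). SLCO5A1 was not called without control replicate 2 (0.138), control replicate 3 (0.0723), ΔSCC4 replicate 1 (0.108) or ΔSCC4 replicate 2 (0.124) or with at least 10 counts in every sample (0.0529). CTSO was not called without control replicate 2 (0.0528) or ΔSCC4 replicate 2 (0.0899). PDGFC was not called without control replicate 2 (0.0552) or ΔSCC4 replicate 2 (0.0622).

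Of 14 tested TCEAL and BEX genes, a cluster on the X chromosome, 0 rose and 2 fell (14.3% called, 0 and 3 with the block, median -0.04). These were TCEAL9 and TCEAL8. TCEAL8 was at 2.34, 1.6 and 1.19 CPM in control and at 0, 0.102 and 0.0691 CPM in ΔSCC4, a ratio of 33.6 (95% interval 9.02 to 282). Of 418 zinc finger genes 20 rose and 6 fell (6.22% called, 113 and 55 with the block, median 0.11). Both lists stand beside 9.49% of all genes, and 46.0% with the block. ZNF608 rose from 7.77 ± 2.12 to 23 ± 4.63 CPM (1.55, adjusted p = 0.00126) and ZNF532 fell from 2.58 ± 0.511 to 0.516 ± 0.107 CPM (-2.28, adjusted p = 0.000596). By chromosome, the share called ranged from 5.17% of 716 genes on chromosome 17 to 13.2% of 456 genes on chromosome 4. The median log2 fold change was 0.124 on chromosome 19 and between -0.07 and 0.083 on every other chromosome.

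The share of called genes was higher in classes of longer genes. The share called was 7.43% of 2234 genes under 10 kb, 7.88% of 7527 genes of 10 to 100 kb, 14.6% of 2411 genes of 100 to 500 kb and 32.1% of 193 genes of 500 kb or more, where 36 rose and 26 fell. Genes of 500 kb or more had the lowest levels, with a median in control of 12.6 CPM. The median was 37.8 CPM for 100 to 500 kb, 39.2 CPM for 10 to 100 kb and 24.5 CPM under 10 kb. Within genes under 10 CPM the share was 19.6% under 100 kb, 36.1% for 100 to 500 kb and 43.9% for 500 kb or more. Within genes at 10 CPM or more these shares were 4.45%, 9.01% and 23.4%. The median gene length was 59.5 kb for rises and 48.0 kb for falls, against 34.7 kb over all genes. These shares describe 1 comparison and were not tested.

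**Figure D4:**
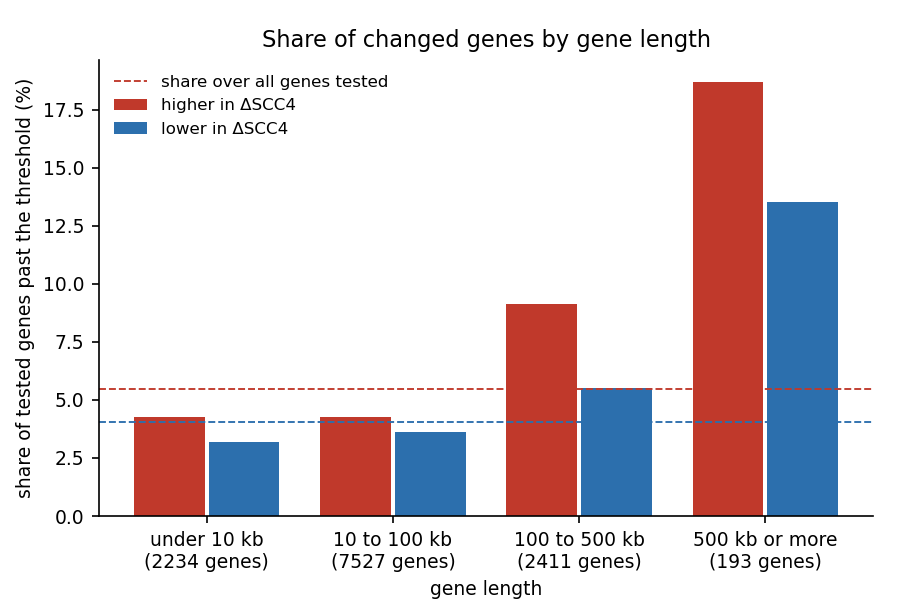
Share of tested genes called higher (red) and lower (blue) in ΔSCC4 against control, in percent, in 4 classes of gene length. Both bars are tallest in the class of 500 kb or more (36 higher and 26 lower of 193 genes) and stand above the dashed shares over all genes (5.45% and 4.03%) in the last 2 classes.

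The loss of SCC4 was measured again in cells without WAPL, where ΔWAPL/ΔSCC4 was compared with ΔWAPL clone 3.3. These 6 samples include none of the 6 above. MAU2 was at 59.2, 52.1 and 57 CPM in ΔWAPL and at 0.91, 1.04 and 0.848 CPM in ΔWAPL/ΔSCC4 (log2 fold change -5.90, adjusted p = 2.57e-12). Here 1330 of 12544 genes (10.6%) were called, 759 higher and 571 lower. Without ΔWAPL replicate 2 there were 861, and with the GC offset 2233. Of 12314 genes tested in both backgrounds, 192 were called in the same direction, 116 up and 76 down, which was 16.2% of the genes called in control cells and 14.4% of those called in ΔWAPL. With the block there were 466 such genes, and with the GC offset 311. A slightly larger number, 203, were called in opposite directions, 100 of them higher and 103 lower in ΔSCC4. Across all genes tested in both, the 2 sets of log2 fold changes had a Spearman's rho of -0.04, where genes are not independent replicates. The genes that rose in ΔSCC4 had a median log2 fold change of 0.02 in the ΔWAPL background, and the genes that fell one of 0.07. The difference of the 2 effects itself, tested as an interaction over all 12 samples, was called for 1453 of 12817 genes (11.3%), and these included 746 of the 1186. The labels name no second line for either loss of SCC4. A dependence on the background and a difference between the knockout lines therefore cannot be told apart, here and in the genes below. With the GC offset 2759 genes were called for the difference, of which 34.4% were positive against 48.4% without it, and its median over all genes moved to -0.105. The replicate numbers did not pair ΔWAPL with ΔWAPL/ΔSCC4 (correlations -0.39, 0.083 and 0.405).

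Some genes changed in the same direction on both backgrounds. OLFM3 was at 20.1, 16.5 and 14 CPM in ΔWAPL and at 0.853, 0.369 and 0.396 CPM in ΔWAPL/ΔSCC4 (log2 fold change -4.94, adjusted p = 1.66e-09). ADGRL3 was at 9.17, 8.98 and 7.31 CPM in ΔWAPL and at 0.171, 0.123 and 0.17 CPM in ΔWAPL/ΔSCC4 (log2 fold change -5.71, adjusted p = 8.81e-10). Both fell on both backgrounds, OLFM3 to close to 0 on each and ADGRL3 to close to 0 only in ΔWAPL/ΔSCC4. TMEM132E was at 2.89, 2.9 and 3.92 CPM in ΔWAPL and at 31.1, 28.3 and 35.2 CPM in ΔWAPL/ΔSCC4 (log2 fold change 3.29, adjusted p = 1.38e-09), and GJA1 rose from 0.823 ± 0.238 to 18.9 ± 3.01 CPM (log2 fold change 4.47, adjusted p = 8.81e-10). TMEM132E and GJA1 thus rose on both. IGF2, KITLG, GRIA2 and IFI16 were also called in the same direction on both backgrounds, with log2 fold changes in ΔWAPL of 1.57, -1.23, -3.66 and -3.16. ALX4 rose on both but differed in size, being at 0.548, 0.495 and 0.598 CPM in ΔWAPL and at 76.7, 67.9 and 83.2 CPM in ΔWAPL/ΔSCC4 (log2 fold change 7.10, adjusted p = 1.58e-12). Differences are given as the log2 fold change in the control background minus that in the ΔWAPL background, and that of ALX4 was -4.52, adjusted p = 4.18e-08.

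Other large changes of ΔSCC4 cells were not called in the ΔWAPL background, and the difference was. S100A6 was at 28.1, 28.9 and 35.8 CPM in ΔWAPL and at 36, 29.2 and 34.6 CPM in ΔWAPL/ΔSCC4 (adjusted p = 0.699, and 8.64e-09 for the difference). GABRA5 was at 13.1, 12.1 and 11.9 CPM in ΔWAPL and at 15.2, 16.8 and 15.4 CPM in ΔWAPL/ΔSCC4 (adjusted p = 0.101, and 1.25e-09 for the difference). Both genes, almost without counts in ΔSCC4, were counted in all 6 samples here. TAL1 was at 80.5, 69.3 and 68.1 CPM in ΔWAPL and at 83.2, 80.4 and 84 CPM in ΔWAPL/ΔSCC4 (log2 fold change 0.18, adjusted p = 0.376, difference -4.26, adjusted p = 1.53e-09). WNT5A had 16.6 ± 3.68 CPM in ΔWAPL and 19.4 ± 2.74 CPM in ΔWAPL/ΔSCC4 (log2 fold change 0.23, adjusted p = 0.452, difference -4.91, adjusted p = 5.85e-07). The histone genes H2AC6, H1-2 and H2BC5 had log2 fold changes of -0.13, -0.07 and 0.15 in the ΔWAPL background, and the differences were 2.29, 1.92 and 1.82 (adjusted p = 1.2e-06, 8.28e-05 and 0.000118). CCND1 had 23.3 ± 5.93 CPM in ΔWAPL and 19.9 ± 0.24 CPM in ΔWAPL/ΔSCC4 (log2 fold change -0.23, adjusted p = 0.432, difference 3.08, adjusted p = 4.88e-07).

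A last group changed in opposite directions. TFPI2, which rose in ΔSCC4, was at 12.2, 11.2 and 11.4 CPM in ΔWAPL and had no count in any ΔWAPL/ΔSCC4 sample. NLRP2, a gene of the inflammasome family known from oocytes, fell from 2.58 ± 0.559 to 0.67 ± 0.222 CPM in ΔSCC4 (-1.97, adjusted p = 0.00251), while it had no count in ΔWAPL and was at 16.1, 14.4 and 17 CPM in ΔWAPL/ΔSCC4. CD44, the hyaluronan receptor, fell from 3.33 ± 0.674 to 0.0664 ± 0.065 CPM in ΔSCC4, a ratio of 44.3 (95% interval 14.9 to 217), and rose from 1.31 ± 0.199 to 14 ± 0.569 CPM in the ΔWAPL background (log2 fold change 3.39, adjusted p = 1.66e-09). Each of these genes passed the test of the difference (adjusted p = 1.64e-09, 1.96e-08 and 4.85e-09). PCDH9 fell from 45.2 ± 5.49 to 12.2 ± 0.601 CPM (log2 fold change -1.88, adjusted p = 6.99e-08) and KRT8 rose from 3.72 ± 0.0991 to 48.5 ± 3.42 CPM (log2 fold change 3.70, adjusted p = 1.2e-10), against their directions in ΔSCC4. PDGFRA, VEGFC and ETV1, which rose in ΔSCC4, fell in the ΔWAPL background, with log2 fold changes of -1.47, -2.72 and -1.68. SPARC, C3 and CCN1, which fell in ΔSCC4, rose there, with log2 fold changes of 1.76, 2.20 and 1.50. PCDH9 had started from 10.2 ± 2.01 CPM in control.

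**Figure D5:**
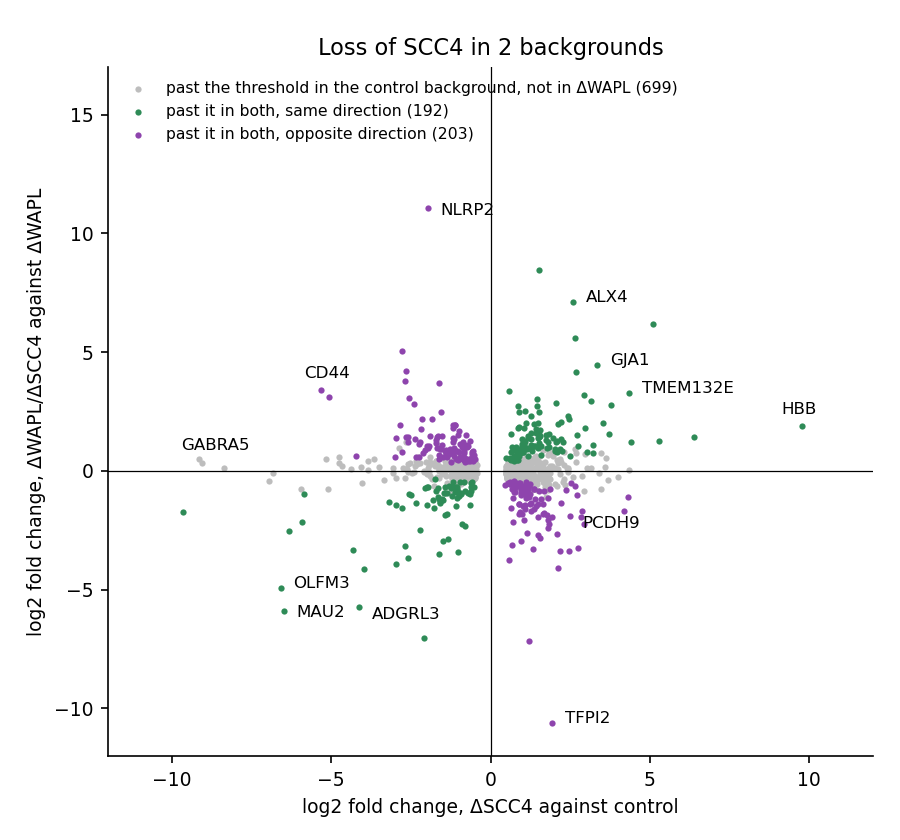
Log2 fold change of the genes called in ΔSCC4 against control (x axis) and that of the same genes in ΔWAPL/ΔSCC4 against ΔWAPL (y axis), 3 samples in each of the 4 groups. Green points are the 192 genes called in both in the same direction, purple points the 203 called in both in opposite directions, and grey points the 699 not called in the ΔWAPL background. Folds of genes without counts in 1 group are fitted values.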

How the data were processed

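RNA-seq of HAP1 cells was deposited as counts of reads per gene, 1 file per sample. Per the labels and the study's methods, the authors mapped polyadenylated, strand-specific libraries to hg19 with TopHat2 (2.0.9 in the processing notes) and counted reads with HTSeq; the annotation and the strand setting of the counting are not given in the sources used here. The summary lines of the counter were left out. Groups came from the labels.

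Genes passing edgeR's filterByExpr were tested with edgeR 4.0.16 (R 4.3.3), using TMM scaling, a quasi-likelihood fit and Benjamini-Hochberg adjustment at 0.05, in a fit of the 6 samples compared. Standard errors were derived from the F statistic of each gene. Fold changes were fitted with edgeR's default prior count, and a prior count of 2 was used only for log CPM values. The effects of SCC4 loss in both backgrounds were compared by an interaction term over 12 samples. The exact permutation test of 3 samples against 3 cannot go below p = 0.1 and was not used. The test itself had no block, so the adjusted p-values given for named genes are unpaired. A block of the replicate number was an alternative, since the deviations of same-numbered control and ΔSCC4 samples correlated at 0.741, 0.156 and 0.679. For replicate 2 the number is no clear pair, since control replicate 2 correlated with ΔSCC4 replicate 3 at 0.139. Alternatives were DESeq2 1.42.0, its size factors in edgeR, other filters, one fit over all 18 samples, a replicate block, a loess offset of counts on GC content, all 6 controls and leaving out each replicate. Coordinates, gene lengths and GC content came from GRCh37 with GENCODE v44lift37, in which 96.6% of gene IDs were found. Python 3.11.15, pandas 2.3.3 and scipy 1.17.1 were used, and the fits were tested on simulated data.

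Total counts per sample lay between 10007646 and 20711127 over all 18 samples, and 3 counts over a group were taken as the floor. The members and gene lists were chosen with earlier results of these data known. Genes were named by rule: cohesin genes; the 10 largest rises and falls among genes whose average log2 CPM was 1 or more and whose groups did not overlap; up to 4 called members of each list with the largest change; the 5 largest gains and losses in CPM; genes of runs; up to 5 genes each for a shared and a differing effect in both backgrounds; and up to 6 genes with under 3 counts in every library of 1 group. Neighbours of MAU2 were named beyond this rule, and not all genes it allows are named, some being not reported here. CPM are not scaled to gene length, which bears on summed marker levels and on gains and losses in CPM.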

Additional observations from a re-analysis of the deposited data

Results flagged for a closer look

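The change measured on loss of SCC4 differed between the control and the ΔWAPL comparison in 1453 genes. An effect of the background and an effect of the knockout line cannot be told apart in it. The test was edgeR's quasi-likelihood test of the interaction with Benjamini-Hochberg adjustment. Those named here are the genes of the report with an adjusted p under 0.05 in that test. Each value is the log2 fold change of ΔSCC4 against control minus that of ΔWAPL/ΔSCC4 against ΔWAPL, so a positive value stands for a more positive effect in the control background. For the 9 of these genes without a count in 1 of the 4 groups (FZD10, HBB, LIN28A, MFAP2, MT1M, NLRP2, PPP2R2B, TFPI2 and ZNF486) the values are fitted and no bounds. Groups of 3 samples were not searched for single samples that stand apart.

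The cohesin and condensin genes had differences of -0.56 for NCAPD3. Among the neighbours of MAU2, the difference was 1.15 for CRTC1. For the neighbours of MAU2 they were -5.02 for ZNF486. Genes with the largest changes differed by 7.97 for HBB, 5.40 for EPHA5, 4.94 for NLGN4X, 4.15 for KCNQ5, 4.01 for JAKMIP3, 3.20 for OLFM1, 2.13 for SDK1 and 1.06 for TMEM132E. The genes with the largest changes had differences of -9.77 for MT1M, -9.45 for GABRA5, -8.49 for S100A6, -8.09 for MFAP2, -8.03 for PPP2R2B, -6.61 for TCEAL9, -6.53 for SLC17A9 and -3.77 for SLC19A3. Among the genes with the largest shifts in CPM, the difference was 3.28 for ANXA1, 1.45 for GASK1B and 1.40 for ATP10D. For the genes with the largest shifts in CPM they were -2.88 for IGFBP5, -1.37 for ZFAND5 and -1.17 for SCD. Transcription factors differed by 4.54 for ETV1, 4.23 for IRX4 and 1.77 for SOX1. The transcription factors had differences of -4.52 for ALX4, -4.26 for TAL1, -4.16 for OLIG1, -3.93 for HOXC11 and -1.83 for OLIG2. Among the genes of adhesion and guidance, the difference was 5.99 for PCDH8, 4.36 for PCDH9, 3.75 for EPHA8, 2.48 for CADM2, 1.67 for TENM1 and 1.21 for PCDHB5. For the genes of adhesion and guidance they were -6.89 for VCAM1, -4.05 for SEMA4A, -2.93 for CDH3, -2.55 for CNTN1, -1.35 for CADM1, -1.24 for EPHA7, -1.18 for EFNA5 and -0.94 for SEMA3D. Genes of the matrix and its proteases differed by 12.45 for TFPI2, 3.75 for MMP2 and 2.82 for LAMA3.

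The genes of the matrix and its proteases had differences of -3.95 for SPARC, -3.19 for THBS1 and -2.09 for PLAUR. Among the signalling genes, the difference was 4.19 for VEGFC, 2.89 for DTX1, 2.88 for PDGFRA, 2.27 for GDF3 and 0.99 for DLL1. For the signalling genes they were -6.84 for FZD10, -4.91 for WNT5A, -4.40 for DLK1, -3.90 for BMP7 and -2.53 for CCN1. Genes of growth and the cell cycle differed by 3.08 for CCND1, 1.18 for MXD4, 0.91 for CDKN2A and 0.63 for CDKN2C. The genes of growth and the cell cycle had differences of -0.89 for CDC6, -0.69 for FANCD2, -0.61 for MCM6, -0.55 for RAD54L and -0.54 for PRIM1. Among the histone genes, the difference was 2.29 for H2AC6, 1.92 for H1-2, 1.83 for H2BC4, 1.82 for H2BC5 and 1.49 for H2BC21. For the genes of lipid metabolism and hypoxia they were 0.98 for NDRG1. Genes of lipid metabolism and hypoxia differed by -1.98 for EGLN3 and -0.96 for MSMO1. The neuronal genes had differences of -6.06 for RELN and -3.86 for CHRM3. Among the immune genes, the difference was -4.34 for C3, -2.13 for PSMB8, -2.10 for IFITM1 and -0.77 for CD55. For the cell type markers and structural genes they were 4.75 for KIF26B, 4.04 for PROM1, 2.92 for IKZF1 and 1.25 for S100A11. Cell type markers and structural genes differed by -10.71 for LIN28A, -5.31 for KRT8, -2.92 for TDGF1, -1.85 for TPM1 and -0.80 for MYB. The genes of runs, clusters and the germline had differences of 1.68 for CTSO, 1.66 for PDGFC, 1.59 for GLRB and 1.34 for ACTL8. Among the genes of runs, clusters and the germline, the difference was -3.67 for FMN2, -2.89 for ZNF532, -2.58 for PREX2, -1.73 for ALS2CL, -1.73 for PTH1R and -1.25 for PRAME. For the genes chosen for the comparison of backgrounds they were -12.93 for NLRP2 and -8.74 for CD44. Channel and receptor genes differed by -5.68 for KCNH5 and -4.36 for CACNA1I. The solute carriers had differences of 5.09 for SLC2A12 and 4.23 for SLC4A4. Among the solute carriers, the difference was -1.08 for SLC16A3.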

How the results depend on the processing

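Of the 150 genes named as changed, 130 were called in the same direction in every alternative in which they were tested. None turned its direction where it was tested, 19 were not called without 1 of the 6 libraries and 7 in some other alternative. A gene left out by a filter or without an adjusted p was not counted as lost. Genes with under 10 counts in a sample, such as HBB and MFAP2, were not tested under the filter of 10 counts in every sample. The number of genes changed in ΔSCC4 was 1186 and stood between 852 and 1452 with DESeq2, its size factors, no filter on low counts or at least 10 counts in every sample. It was 2556 in one fit over all 18 samples, 2718 with all 6 controls and 1974 with the GC offset, whose median log2 fold change over all genes was -0.056. Without 1 library each it ranged from 662 (control replicate 2) to 2317 (control replicate 1). The number changed in ΔWAPL/ΔSCC4 was 2233 with the GC offset in place of 1330, and ranged from 861 to 1805 without 1 library each. The number of differences between backgrounds was 2759 with the GC offset in place of 1453, and 2516 with the offset and the block. The genes shared in the same direction were 123 with at least 10 counts in every sample, 323 in one fit over all 18 samples, 311 with the GC offset and 416 with the offset and the block, in place of 192. In gene lists, DESeq2 turned the balance of rises and falls in the matrix proteases (5 and 6), actin genes (1 and 2), BMP and TGF-beta (4 and 5), NOTCH (4 and 3) and chemokine lists (5 and 3). One fit over all 18 samples turned it in the Eph (5 and 4), annexin and S100 (2 and 3), NOTCH (5 and 4), hedgehog and Hippo (2 and 3), chemokine (7 and 5) and interferon lists (7 and 5). The cause of these shifts was not tested.

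Samples of control and ΔSCC4 deviated together by replicate number, clearly so for replicates 1 and 3. As a block the number gave 5754 genes (5721 with the GC offset) and 466 shared genes. The numbers did not pair ΔWAPL with ΔWAPL/ΔSCC4, where the block gave 1816 genes, and the block gave 1287 differences. The block changed no call of a named gene from called to not called. Values with no call turned without 1 library. NIPBL ranged from -0.09 to 0.33 (log2 fold change, -0.0883 without control replicate 1), RAD21 from -0.2167 to 0.0043 (0.0043 without control replicate 3 and 0.0005 without ΔSCC4 replicate 1) and CTCF from -0.0243 (without control replicate 3) to 0.0707. Depth limited what could be seen in genes under 0.062 CPM in control and 0.076 CPM in ΔSCC4, the levels of 3 counts over a group.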

Other observations

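Genes of the cytoskeleton changed in both directions. Over all genes 9.49% were called, 22.8% of those of 1 to 10 CPM, and 46.0% of all with the block. Of 31 actin, tropomyosin and actomyosin genes 2 rose and 1 fell (9.68% called, 4 and 14 with the block, 2 and 6 with the GC offset, 3 and 17 with both, median -0.10). TPM1, a tropomyosin that stabilises actin filaments, was at 301, 303 and 299.7 CPM in control and at 184, 179 and 187 CPM in ΔSCC4 (log2 fold change -0.73, SE 0.11, adjusted p = 0.00172), with no overlap, and it rose from 125 ± 23.9 to 270.3 ± 11 CPM when SCC4 was lost in the ΔWAPL background (log2 fold change 1.11, adjusted p = 1.83e-05). Of 33 kinesins 1 rose and 0 fell (3.03% called, 5 and 11 with the block, 1 and 4 with the GC offset, 3 and 13 with both, median -0.11), and KIF26B rose from 0.309 ± 0.0485 to 1.34 ± 0.284 CPM (2.09, adjusted p = 0.00306). Of 11 intermediate filament genes 0 rose and 2 fell (18.2% called, 1 and 7 with the block, median -0.21). Of 12 annexins and S100 proteins 2 rose and 1 fell (25% called, 3 and 5 with the block, median -0.04). The calcium-binding protein S100A11 rose from 13 ± 1.2 to 34.6 ± 4.24 CPM (1.40, adjusted p = 0.000226), while S100A6 of the same family was almost lost.

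Of 219 solute carriers 10 rose and 10 fell (9.13% called, 39 and 58 with the block, median 0.00). Among all genes 9.49% were called, 22.8% of those of 1 to 10 CPM, and 46.0% of all with the block. SLC4A4, a bicarbonate transporter, rose from 0.121 ± 0.105 to 1.47 ± 0.152 CPM (3.47, adjusted p = 0.00124) and SLC2A12, a glucose transporter, rose from 0.721 ± 0.239 to 3.85 ± 0.814 CPM (2.36, adjusted p = 0.00038). SLC16A3, which exports lactate, fell from 23.7 ± 2.12 to 12.5 ± 2.1 CPM (-0.93, adjusted p = 0.00499). Of 36 genes of glycolysis and hypoxia 2 rose and 3 fell (13.9% called, 5 and 14 with the block, median -0.08). EGLN3, an oxygen sensor, was at 34, 32.2 and 29.7 CPM in control and at 13.5, 12 and 11.7 CPM in ΔSCC4 (log2 fold change -1.37, SE 0.14, adjusted p = 0.000161), and NDRG1, another gene induced by low oxygen, rose from 4.47 ± 0.298 to 10.9 ± 1.04 CPM (1.28, adjusted p = 0.000602). Of 22 germline and cancer-testis genes 2 rose and 3 fell (22.7% called, 4 and 5 with the block, median 0.01). ACTL8 was at 24.2, 21.6 and 18.1 CPM in control and at 78.5, 72.4 and 60.7 CPM in ΔSCC4 (log2 fold change 1.71, SE 0.16, adjusted p = 8e-05), whereas PRAME fell from 18.9 ± 2.24 to 9.07 ± 0.972 CPM (-1.07, adjusted p = 0.00178). Of 19 imprinted genes 3 rose and 2 fell (26.3% called, 9 and 2 with the block, median 0.13), among them IGF2, DLK1 and NLRP2. Of 37 chemokines, cytokines and their receptors 3 rose and 4 fell (18.9% called, 8 and 8 with the block, median 0.06, or -0.10 with the GC offset). All p-values are from edgeR's quasi-likelihood test with Benjamini-Hochberg adjustment over all genes.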
